A study of Mus musculus with 36 samples.

Results

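RAW 264.7 cells that received 0.1 µM melatonin and no lipopolysaccharide were set against cells that received solvent, with 3 libraries in each group, so 6 of the 36 libraries of the series carry the comparison. Of the 53465 genes in the count table, 16988 passed the filter on low counts and were tested. RAW 264.7 is an established macrophage-like mouse cell line, labelled wild type. The 0.1 µM group is the lowest of 5 melatonin doses (0.1, 1, 10, 100 and 1000 µM) and was compared with the solvent group, whose solvent is not named in the sources used here. A further 6 libraries held the same dose with lipopolysaccharide (LPS, an outer-membrane component of Gram-negative bacteria, at 10 µg/mL), namely LPS with 0.1 µM melatonin, where melatonin preceded LPS by 30 min, and LPS alone. All cells were collected after 12 h. Whether replicate libraries stem from separate cultures is not stated in the labels, and p-values therefore reflect variation among libraries that could be technical.

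Melatonin is the hormone of the pineal gland, made at night from serotonin, and it is studied in macrophages as an anti-inflammatory and antioxidant molecule. The transcription factor NF-kB is the main switch of inflammatory genes in these cells. It is kept out of the nucleus by inhibitor proteins such as IkB alpha, the product of Nfkbia, and once released it drives cytokine genes together with its own brakes, among them Nfkbia and Tnfaip3.

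The 6 libraries held 5304500 to 6628462 counts each, and the upper limit for a gene with 0 counts, taken as 3 counts, corresponds to 0.4495 to 0.5608 CPM (counts scaled to a common library total, with TMM factors). That limit covers counting error only. No pair of replicate libraries agreed within sampling noise, with chi-square per degree of freedom of 9.17 to 9.80 within 0.1 µM melatonin and 11.9 to 13.7 within solvent. All 12 macrophage markers were present, with a summed level of 7148.8 to 7261.4 FPKM at 0.1 µM and 7536.6 to 7799.4 FPKM in solvent. Markers of other cells were at 0 in all 6 libraries for 6 of 9 T and NK cell genes (Cd3e, Cd4 and Cd8a among them), 6 of 8 neutrophil and mast cell genes, 2 of 6 epithelial genes and 0 of 8 fibroblast genes. Il7r was present at 25.8 to 30.3 CPM at 0.1 µM and 23.8 to 31.6 CPM in solvent, and Cd3d was above 0 in 2 solvent libraries, at up to 1.65 CPM, and at 0 in the other 4. The fibroblast list, with Col1a1, Col1a2, Pdgfra and Thy1 each above 1 CPM in some library, summed to 0.067 to 0.695 FPKM at 0.1 µM and 0.752 to 1.84 FPKM in solvent, so it was lower at 0.1 µM. The epithelial list summed to at most 0.0903 FPKM at 0.1 µM and 0.859 FPKM in solvent. The T and NK cell list summed to 5.40 to 6.44 FPKM at 0.1 µM and 5.22 to 7.82 FPKM in solvent, and the neutrophil and mast cell list to at most 0.0205 FPKM at 0.1 µM and 0.553 FPKM in solvent. Of the B cell genes Ms4a1 was at 0, Cd79a and Ighm were present, and the B cell list summed to 137 to 179 FPKM at 0.1 µM and 146 to 162 FPKM in solvent. The part of these marker levels in the results was not tested. Bulk RNA cannot tell fewer cells of a type from less RNA per cell.

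At 0.1 µM melatonin a small set of inflammatory genes was lower than in solvent. The cytokine gene Tnf, the NF-kB inhibitors Nfkbia and Tnfaip3, the NF-kB cofactor Nfkbiz, the adaptor Traf1 and the itaconate-producing enzyme Acod1 all fell. Nfkb1, which encodes a subunit of NF-kB itself, rose. Copies of the ferritin light chain gene rose, and the nuclear noncoding RNA Malat1 fell. In all, 58 genes passed an adjusted p of 0.05 in edgeR's quasi-likelihood test with Benjamini-Hochberg adjustment over all tested genes, which is 0.341% of them, and 23 were higher and 35 lower. At an unadjusted p under 0.05 there were 1580. The changes were modest in size, since 23 of the 58 reached 2-fold, 6 of them higher and 17 lower. In each of the 58 the 3 libraries of one group lay wholly above those of the other, which held for 16.5% of all tested genes. The count was lower whichever library of the 2 groups was left out. It was 27, 11 and 16 without 0.1 µM replicate 1, 2 and 3, and 33, 28 and 17 without solvent replicate 1, 2 and 3. These 6 smaller fits each had a group of 2 libraries and tested 18438 to 18497 genes. The part of that in the lower counts was not tested. The count was 155 (74 higher and 81 lower) without 2 other libraries whose labels are in doubt, described below. Of the 58, 9 passed in every one of those 6 smaller fits, namely Tnf, Tnfaip3, Malat1, Ftl1-ps1, Ftl2-ps and the lesser-known Gm2225, Gm5611, Gm21738 and Gm26870.

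Tnf, on chromosome 17 (35199381 to 35202007, mm10), encodes tumor necrosis factor. Its level was 116, 83.0 and 90.7 CPM in the 3 libraries at 0.1 µM melatonin, against 172, 189 and 159 CPM in solvent. The highest melatonin library was well under the lowest solvent library. The log2 fold change was -0.85 ± 0.14 (SE), with an adjusted p of 0.00175 in edgeR. Tnfaip3 (chromosome 10, 19000910 to 19015657), which encodes A20, an enzyme that shuts off NF-kB signalling, had 8.40, 4.02 and 5.23 CPM at 0.1 µM and 16.7, 23.9 and 20.8 CPM in solvent. It fell by 1.79 on the log2 scale (SE 0.30, adjusted p = 0.00194, edgeR). Nfkbia (chromosome 12, 55489410 to 55492647) had 119, 87.2 and 102 CPM at 0.1 µM and 216, 181 and 136 CPM in solvent. Here the gap between the groups was narrow, with solvent replicate 3 the lowest of its group, and the log2 fold change of -0.79 ± 0.17 had an adjusted p of 0.0235 in edgeR.

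The promoters of these 3 genes are shown because all are textbook targets of NF-kB. Windows from RefSeq (GRCm38.p6) run from 250 bases before to 50 bases after a RefSeq start site, 5′ to 3′ on the gene's strand, and capitals mark matches to the kappaB consensus on either strand.
Nfkbia, chr12:55492598-55492897, minus strand: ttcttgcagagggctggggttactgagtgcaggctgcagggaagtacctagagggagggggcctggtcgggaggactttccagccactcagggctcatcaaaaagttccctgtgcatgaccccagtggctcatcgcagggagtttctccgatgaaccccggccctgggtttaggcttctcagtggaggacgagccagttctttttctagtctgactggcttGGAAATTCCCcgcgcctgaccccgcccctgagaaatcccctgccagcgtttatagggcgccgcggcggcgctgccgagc
Tnfaip3, chr10:19015361-19015660, minus strand: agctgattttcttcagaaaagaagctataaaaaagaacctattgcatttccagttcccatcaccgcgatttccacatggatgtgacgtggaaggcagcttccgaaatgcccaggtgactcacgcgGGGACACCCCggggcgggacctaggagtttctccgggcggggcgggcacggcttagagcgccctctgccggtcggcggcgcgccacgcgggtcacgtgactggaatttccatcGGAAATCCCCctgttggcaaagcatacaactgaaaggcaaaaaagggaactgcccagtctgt
Tnf, chr17:35201958-35202257, minus strand: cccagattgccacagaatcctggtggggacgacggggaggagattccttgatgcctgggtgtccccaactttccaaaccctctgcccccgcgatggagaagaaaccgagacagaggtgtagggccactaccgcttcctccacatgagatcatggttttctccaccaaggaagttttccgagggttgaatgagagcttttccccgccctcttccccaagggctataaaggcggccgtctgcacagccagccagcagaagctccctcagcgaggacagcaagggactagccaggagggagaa

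The consensus matched once in the Nfkbia window, beginning at position -29 from the start site, and at 2 places in the Tnfaip3 window shown, at -125 and -12. A second RefSeq window of Tnfaip3 (chr10:19011914-19012213) held no match. Positions count from the RefSeq start, which for Tnfaip3 lies inside the gene span printed above from GENCODE, so most of the window shown is within that span. The windows of Tnf, Traf1 and Acod1 held no match, which says only that these letters are not in this stretch. Of all genes with such a window, 9.55% held a match, among tested genes 11.9%, and among members of the NF-kB list 50% (11 of 22). Of the 16 genes that fell and have a window, 4 held one (25%), namely Nfkbia, Tnfaip3, Aimp1 and Flna, and of the 11 that rose, 1 did (9.09%). A match is a description of the sequence and not a binding site.

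The other inflammatory genes that passed were lower too, apart from Nfkb1. Nfkbiz encodes IkB zeta, a nuclear cofactor of NF-kB that is itself induced by Toll-like receptor signals. It had 54.0, 53.7 and 46.2 CPM at 0.1 µM against 120, 112 and 81.1 CPM in solvent, a log2 fold change of -1.02 ± 0.22 (adjusted p = 0.0213, edgeR). Traf1, an adaptor of TNF receptors, had 9.49, 11.5 and 16.5 CPM at 0.1 µM and 37.9, 35.8 and 25.2 CPM in solvent (-1.40 ± 0.27, adjusted p = 0.00783, edgeR). Solvent replicate 3 was again the lowest of its group, as it was for Nfkbia and Nfkbiz. Acod1, which makes the immunomodulatory metabolite itaconate, was scarce in both groups, with 0.778, 1.67 and 1.31 CPM at 0.1 µM and 9.68, 4.71 and 10.0 CPM in solvent (-2.69 ± 0.52, adjusted p = 0.00783, edgeR). Nfkb1, the p105 precursor of the p50 subunit, went the other way, with 85.7, 91.2 and 80.8 CPM at 0.1 µM and 52.8, 46.8 and 47.6 CPM in solvent. Its groups were tight and far apart, and the log2 fold change was 0.81 ± 0.18 (adjusted p = 0.0286, edgeR). Phlda1, an early-response gene, had 2.49, 4.69 and 2.24 CPM at 0.1 µM and 12.6, 5.97 and 9.89 CPM in solvent (log2 fold change -1.58), though a transcript on the opposite strand shares 30.8% of its sequence words and the strand setting of the counting is not given in the sources used here.

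Tnf and Tnfaip3 kept an adjusted p under 0.05 whichever library was left out, and the other calls of this group did not. Traf1 had an adjusted p of 0.0881 and 0.0827 without 0.1 µM replicate 1 or 2, and Acod1 of 0.0687 without 0.1 µM replicate 1 and 0.0526 without solvent replicate 3, all in edgeR, and of 0.072 when only the 6 compared libraries were fitted. Nfkbia had 0.203, 0.113, 0.230 and 0.0816 without 0.1 µM replicates 2 or 3 or solvent replicates 1 or 2, and Nfkbiz lay between 0.0659 and 0.148 without any library but solvent replicate 3. Nfkb1 and Phlda1 lay between 0.0770 and 0.148 and between 0.0527 and 0.263 in such fits, with Phlda1 still past the threshold without solvent replicate 2.

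**Figure D1:**
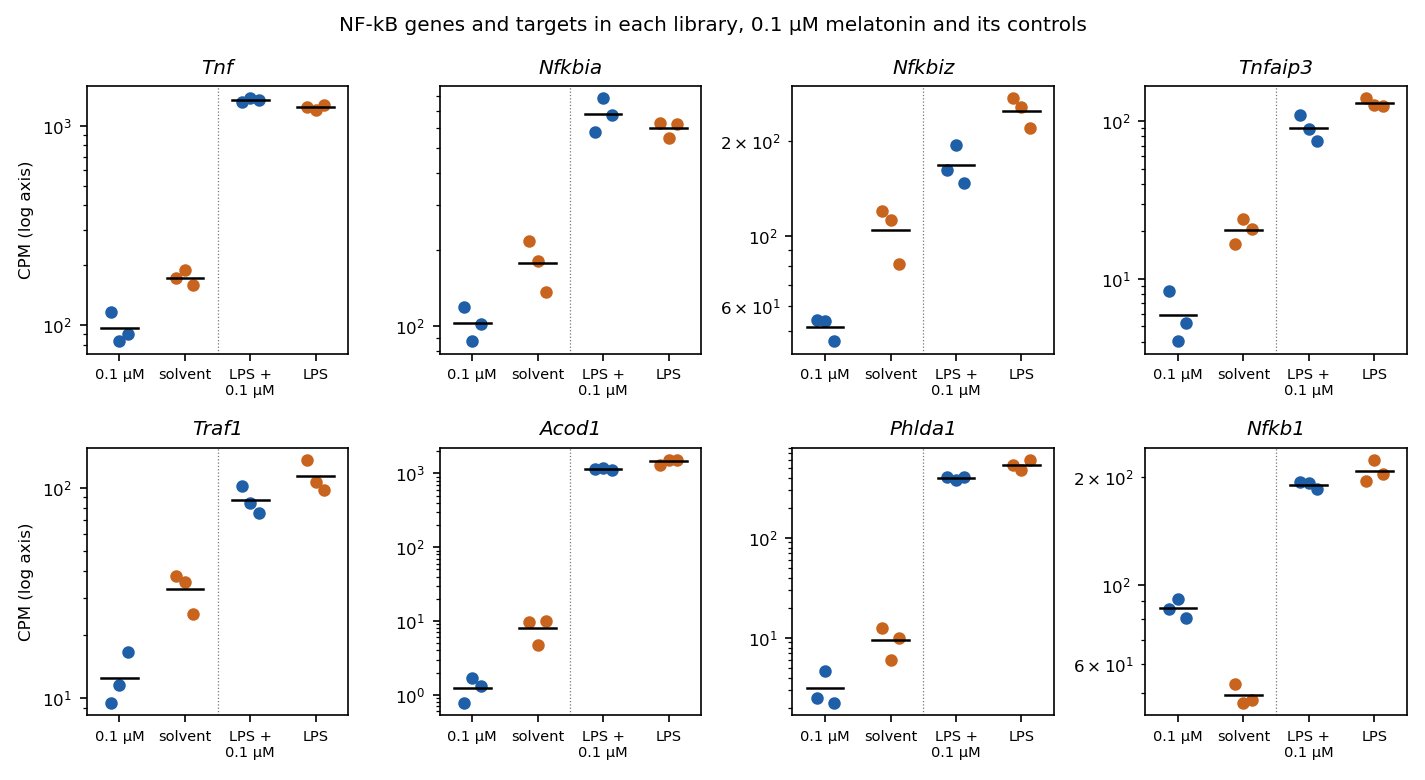
Level of 8 genes in each library (points; CPM on a log axis, bar at the mean of 3) at 0.1 µM melatonin, in solvent, with LPS and 0.1 µM melatonin, and with LPS alone. Without LPS the groups do not overlap in any of the 8 genes, Tnf lying at 83.0 to 116 CPM at 0.1 µM and 159 to 189 CPM in solvent, while with LPS Tnf lies at 1327.6 to 1380.8 CPM with 0.1 µM melatonin and 1208.4 to 1282.5 CPM without.

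Gene lists put these changes in context. Over all tested genes the median log2 fold change was 0.00, with 8510 below 0 and 8215 above. Of 26 genes of the NF-kB list, 4 fell and 1 rose, and the median was -0.28, with 18 below 0. Members that did not pass included the subunit genes Nfkb2 (3.59 CPM at 0.1 µM, 11.6 CPM in solvent; adjusted p = 0.236, edgeR), Rel (71.1 and 93.5 CPM) and Rela (98.0 and 87.1 CPM), and the kinase gene Ikbkb (61.6 and 61.0 CPM). Of 27 cytokines and chemokines Tnf alone passed in edgeR, and 1 gene passed in DESeq2. The list's median was -0.57 with 20 below 0 and 4 above, and 3 members reached an unadjusted p under 0.05. Abundant chemokines did not pass, Ccl3 at 357 CPM at 0.1 µM and 382 CPM in solvent and Ccl4 at 234 and 263 CPM, while Cxcl2, a neutrophil attractant, had 55.5 and 86.2 CPM (adjusted p = 0.371, edgeR). Il1b had 0, 0 and 2.99 CPM at 0.1 µM and 1.36, 0.785 and 1.95 CPM in solvent, with overlapping groups, and Il6 and Il1a had 0 counts in all 6 libraries. Ptgs2, the inducible cyclooxygenase gene, had 7.78, 8.70 and 1.68 CPM at 0.1 µM and 3.57, 10.7 and 7.19 CPM in solvent, also overlapping, and Nos2 had 2 counts in a single solvent library and 0 in the rest. Of 17 inflammatory enzymes Acod1 alone passed, with the phagocyte oxidase gene Cybb at 612 CPM at 0.1 µM and 701 CPM in solvent.

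Of 20 Toll-like receptor and adaptor genes, which act upstream of NF-kB, 0 passed in edgeR and 0 in DESeq2, with 1 at an unadjusted p under 0.05 and a median of 0.02. Tlr4, the LPS receptor, had 31.7 CPM at 0.1 µM and 39.8 CPM in solvent, and its co-receptor Cd14 had 333 and 425 CPM. Immediate early genes, which respond within minutes to growth and stress signals, had 0 of 22 past the threshold in edgeR, 2 in DESeq2 and 8 at an unadjusted p under 0.05, and a median of -0.42 with 17 below 0. Of the 22, 10 had non-overlapping groups in the lower direction, as did 8.28% of all tested genes. The count past the threshold in edgeR was 7 lower with only the 6 compared libraries, 3 lower and 1 higher with no filter on low counts, 3 lower without the 2 libraries in doubt and 1 lower with a replicate block. Jun, a subunit of the AP-1 factor, had 379, 347 and 319 CPM at 0.1 µM and 757, 711 and 811 CPM in solvent, with an adjusted p of 0.0674 in edgeR, and Atf3 had 136, 143 and 153 CPM against 301, 282 and 287 CPM (adjusted p = 0.116, edgeR). Both sets of libraries stood well apart although neither gene passed. Of 35 interferon-response genes 0 passed in edgeR or DESeq2, with 9 at an unadjusted p under 0.05 and a median of -0.36. Of 10 tested genes for melatonin receptors, binders and enzymes 0 passed in edgeR or DESeq2, and 0 reached an unadjusted p under 0.05, Nqo2, the quinone reductase known as the melatonin binding site MT3, having 18.7 CPM at 0.1 µM and 15.2 CPM in solvent. Mtnr1a and Mtnr1b, the membrane receptor genes, had 0 counts in all 6 libraries.

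Antioxidant genes were mostly above 0 without passing in edgeR. Of 28 genes in the NRF2 list 0 passed in edgeR and 3 in DESeq2, 9 had an unadjusted p under 0.05 in edgeR, 22 lay above 0 and the median log2 fold change was 0.30, and 10 had non-overlapping groups in the higher direction, as did 8.19% of all tested genes. Leaving out the 2 libraries in doubt, or fitting only the 6 compared libraries, gave 2 past the threshold in edgeR. Pgd and G6pdx, enzymes of the pentose phosphate pathway that supplies NADPH, had 301, 254 and 266 CPM at 0.1 µM against 217, 180 and 187 CPM in solvent (adjusted p = 0.0751, edgeR) and 185, 186 and 164 CPM against 109, 151 and 124 CPM (adjusted p = 0.138, edgeR). Prdx6, a peroxiredoxin, had 248, 227 and 219 CPM at 0.1 µM and 172, 163 and 170 CPM in solvent (adjusted p = 0.0996, edgeR). Hmox1, heme oxygenase 1, had 25.5, 18.9 and 21.1 CPM at 0.1 µM and 12.9, 14.6 and 11.8 CPM in solvent, and did not pass either. In the libraries with LPS, which are other libraries, the list's median was 0.32 for LPS with 0.1 µM melatonin against LPS, again with 0 members past the threshold in edgeR.

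**Figure D2:**
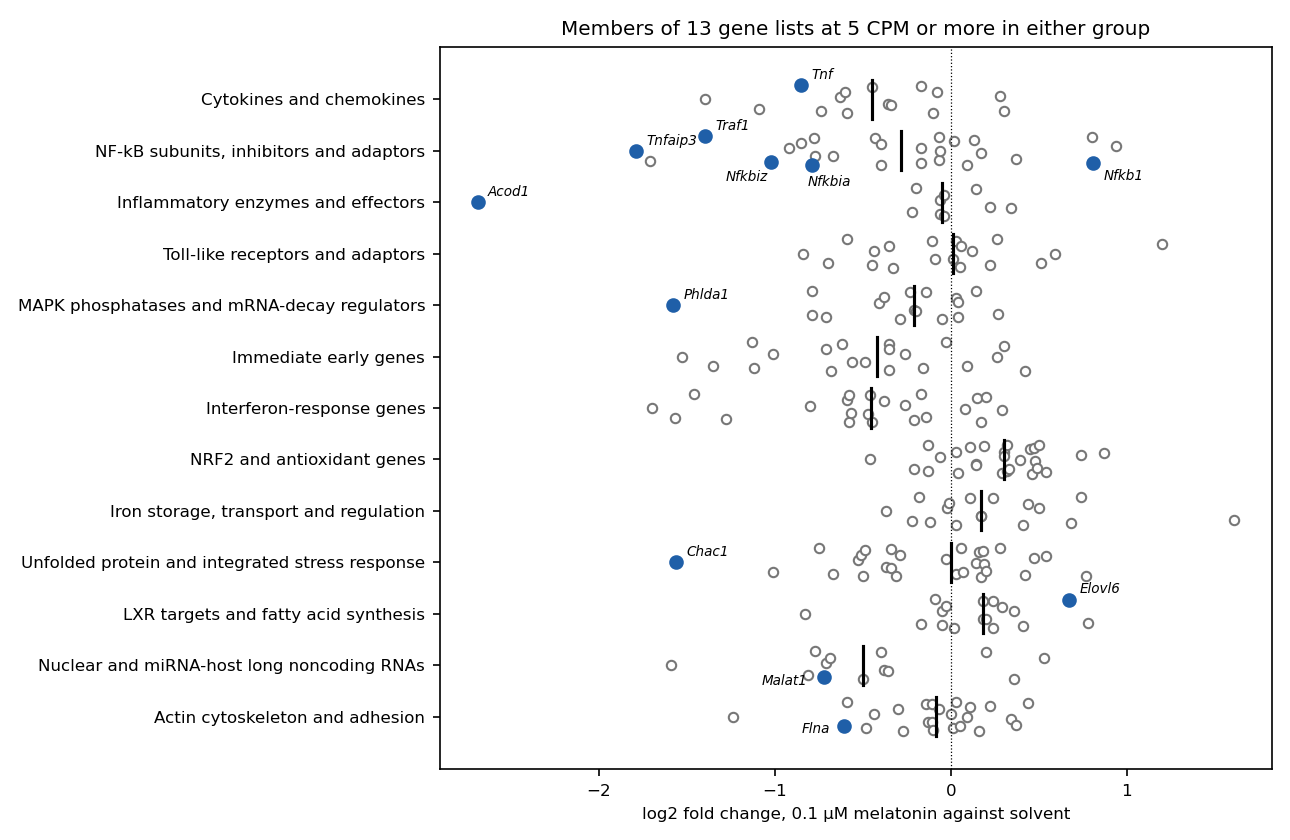
log2 fold change at 0.1 µM melatonin against solvent for members of 13 gene lists whose higher group mean is 5 CPM or more (open points: not past the threshold; filled, named points: adjusted p under 0.05 in edgeR; bar: median of the plotted members). The filled points of the inflammatory lists lie left of 0 apart from Nfkb1, and the antioxidant list lies mostly right of 0 with no filled point.

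Genes that LPS induces were taken from other libraries, as those past the threshold and at least 2-fold higher with LPS at 1 and 10 µM melatonin. Of these 1020 genes 12 fell and 6 rose at 0.1 µM melatonin without LPS, 1.76% in all against 0.341% of all tested genes. Those that fell were Tnf, Nfkbia, Nfkbiz, Tnfaip3, Traf1, Acod1, Phlda1, the endosomal adaptor Rab11fip1, the torsin family gene Tor3a, AA414768, Gm21738 and Gm10719. The median over the 1020 was 0.00 with 47.8% below 0, against 0.00 and 50.1% over all tested genes. Of 1292 genes lower with LPS 2 fell, Malat1 and Gm4617, which is 0.155%.

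Ferritin light chain copies were higher. Ferritin stores iron in a safe form, and the light chain gene Ftl1 has near-identical copies whose reads may not be fully told apart. Ftl1-ps1 (chromosome 13, 74399694 to 74407346, protein-coding by its biotype) had 1087.6, 1171.9 and 1012.8 CPM at 0.1 µM and 502, 546 and 551 CPM in solvent. The lowest melatonin library was far above the highest solvent library, a log2 fold change of 1.03 ± 0.14 with an adjusted p of 0.000153 in edgeR. Ftl2-ps, which shares 79.7% of its sequence words with Ftl1-ps1, averaged 533 ± 25.2 CPM at 0.1 µM and 287 ± 22.6 CPM in solvent (SD, n = 3 each; 0.89 ± 0.16, adjusted p = 0.00278, edgeR). Ftl1 itself had 85.7, 91.0 and 83.2 CPM at 0.1 µM and 57.8, 52.4 and 52.4 CPM in solvent, apart but not past the threshold (adjusted p = 0.119, edgeR). Summed over these 3 genes, ferritin light chain took 0.173% ± 0.00973 of counts at 0.1 µM and 0.0876% ± 0.00213 in solvent (SD, n = 3 each). Ftl2-ps has 4 other genes that each hold at least 50% of its words, and the sum includes at most Ftl1-ps1 and Ftl1 of these, so other copies lie outside it. The heavy chain gene Fth1 had 1100.9, 1098.7 and 1075.2 CPM at 0.1 µM and 799, 757 and 754 CPM in solvent (adjusted p = 0.405, edgeR), and 0 of 19 tested iron genes passed in edgeR, 1 in DESeq2, with 5 at an unadjusted p under 0.05.

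Further genes rose. Glud1, the mitochondrial glutamate dehydrogenase, had 682, 733 and 871 CPM at 0.1 µM and 410, 408 and 430 CPM in solvent, a log2 fold change of 0.87 ± 0.19. Btf3, a factor that guides new protein chains at the ribosome, had 244, 199 and 225 CPM at 0.1 µM and 113, 107 and 114 CPM in solvent (1.00 ± 0.22). Both sets of groups were widely apart, yet each call was lost in at least 5 of the 6 smaller fits, Glud1 with adjusted p-values up to 0.178 and Btf3 up to 0.128 in edgeR. Other genes hold 43.9% of the sequence words of Btf3, and Gm9828 overlaps it on the opposite strand. Tle1, a transcriptional corepressor, had 75.1, 69.5 and 80.8 CPM at 0.1 µM and 33.0, 32.7 and 31.6 CPM in solvent. Selenof, a selenoprotein of the endoplasmic reticulum, had 221, 286 and 263 CPM at 0.1 µM and 166, 144 and 128 CPM in solvent. Both were higher in every melatonin library than in any solvent library. Tle1 did not pass in any of the 6 smaller fits, and Selenof had an adjusted p of 0.0827 without 0.1 µM replicate 2 and 0.0869 without solvent replicate 3 in edgeR. Elovl6, which lengthens fatty acids, was the member of the LXR and fatty acid list that rose. It had 152, 136 and 166 CPM at 0.1 µM and 96.8, 99.2 and 88.4 CPM in solvent (log2 fold change 0.67; adjusted p = 0.0487, edgeR), and it did not pass in any of the 6 smaller fits, nor with RLE size factors (0.0587) or without the filter on low counts (0.113). The same list held Fasn at 209 CPM at 0.1 µM and 157 CPM in solvent, below the threshold. Gnb2, a G protein beta subunit, had 123, 150 and 136 CPM at 0.1 µM and 68.5, 86.7 and 74.0 CPM in solvent. Fam49b had 124, 166 and 168 CPM at 0.1 µM and 94.3, 76.3 and 74.5 CPM in solvent. Rap1b, a small GTPase of cell adhesion, had 204, 215 and 198 CPM at 0.1 µM and 149, 134 and 130 CPM in solvent. None of these groups overlapped, and the log2 fold changes were 0.84, 0.90 and 0.58 (adjusted p = 0.0219, 0.0353 and 0.0492, edgeR). Of the 6 smaller fits, Gnb2 was lost in 4, Fam49b in 5 and Rap1b in all 6. Ufc1, which conjugates the ubiquitin-like protein UFM1, had 208, 189 and 212 CPM at 0.1 µM and 129, 125 and 105 CPM in solvent. Hibadh, an enzyme of valine breakdown, had 61.8, 91.0 and 57.8 CPM at 0.1 µM and 44.0, 42.7 and 35.8 CPM in solvent. Their log2 fold changes were 0.76 and 0.78 (adjusted p = 0.0492 and 0.0487, edgeR), with no overlap of groups. Neither passed in any of the 6 smaller fits. Rap1b, Ufc1 and Hibadh also failed to pass with RLE size factors (adjusted p = 0.0587, 0.0587 and 0.055, edgeR). The same held with protein-coding genes only (0.0653, 0.0517 and 0.0629). Acsbg1, an acyl-CoA synthetase, had 52 counts over the 3 melatonin libraries and 1 over the 3 solvent libraries, a ratio of 56.0 with a 95% exact interval of 9.62 to 2254.2 that covers counting error only. Its call was lost in all 6 smaller fits, with adjusted p-values of 0.0609 to 0.181 in edgeR. It was also lost with only the 6 compared libraries (0.0937, edgeR), and DESeq2 gave it no adjusted p.

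Among the genes that fell outside the inflammatory group, Malat1 was the most abundant. This long noncoding RNA stays in the nucleus and gathers at splicing speckles. It had 2563.7, 2389.2 and 2334.8 CPM at 0.1 µM and 4064.2, 3788.4 and 4173.8 CPM in solvent, a log2 fold change of -0.72 ± 0.13 (adjusted p = 0.00278, edgeR). Of 17 nuclear and miRNA-host noncoding RNAs it alone passed in edgeR, while 2 passed in DESeq2, 9 had an unadjusted p under 0.05 in edgeR and 7 had non-overlapping groups in the lower direction, with Neat1 at 154 CPM at 0.1 µM and 218 CPM in solvent (adjusted p = 0.51, edgeR), and the list's median was -0.40. The share of counts in rRNA genes, a sign of how RNA was prepared, was 0.866% ± 0.0729 at 0.1 µM and 0.915% ± 0.228 in solvent (SD, n = 3 each), within the spread between libraries. Of a list of genes linked to RNA quality and ribosomal RNA, all 5 tested, Malat1 among them, lay below 0, with a median of -0.72 and 1 past the threshold (Malat1). With LPS the median was -0.67 and 2 passed (Malat1 and Lars2). Lars2, the mitochondrial leucyl-tRNA synthetase gene, had 5146.9, 4676.2 and 5886.2 CPM at 0.1 µM and 7139.4, 7688.2 and 12395.2 CPM in solvent (adjusted p = 0.365, edgeR). With LPS and 0.1 µM melatonin Lars2 had 2110.6, 1959.6 and 2572.8 CPM, against 6298.1, 5452.6 and 8258.9 CPM with LPS alone (adjusted p = 0.00325, edgeR). The part of RNA quality in these results was not tested. Glra3, a glycine receptor subunit, had 26.8, 12.6 and 17.0 CPM at 0.1 µM and 56.6, 58.9 and 101 CPM in solvent (-1.94 ± 0.40, adjusted p = 0.0157, edgeR). Flna, the actin cross-linker filamin A, had 166, 155 and 177 CPM at 0.1 µM and 244, 239 and 275 CPM in solvent, and was the 1 gene of 25 in the actin list that passed in edgeR (-0.61 ± 0.12, adjusted p = 0.0131; 2 genes passed in DESeq2). Chac1, a glutathione-degrading enzyme of the integrated stress response, had 5.76, 4.02 and 4.86 CPM at 0.1 µM and 17.0, 14.1 and 12.1 CPM in solvent. It was the 1 gene of 28 in the unfolded protein list that passed in edgeR, against 3 in DESeq2, and did not pass in any of the 6 smaller fits. Of the 28, 13 had an unadjusted p under 0.05 in edgeR, as did 1580 of all 16988 tested genes. Groups did not overlap for 8 in the lower and 5 in the higher direction. Over all tested genes that held for 8.28% and 8.19%. The list's median was 0.00. Snrnp35, a protein of the minor spliceosome, had 20.1, 23.3 and 15.1 CPM at 0.1 µM and 45.2, 43.2 and 35.2 CPM in solvent. Zfp146, a zinc finger gene, had 48.4, 40.5 and 47.7 CPM at 0.1 µM and 79.2, 87.8 and 96.3 CPM in solvent. Rab11fip1 had 29.1, 33.3 and 26.5 CPM at 0.1 µM and 54.9, 59.0 and 48.2 CPM in solvent. These 3 fell by 1.08, 0.95 and 0.87 on the log2 scale, with groups apart. Aimp1, a scaffold of the tRNA synthetase complex, had 241, 210 and 240 CPM at 0.1 µM and 407, 377 and 361 CPM in solvent. Nop14, a ribosome assembly factor, had 105, 107 and 99.1 CPM at 0.1 µM and 174, 166 and 168 CPM in solvent. The groups were apart in both, which fell by 0.73 and 0.70 on the log2 scale. Ammecr1 had 119, 115 and 113 CPM at 0.1 µM and 202, 171 and 181 CPM in solvent, and Tor3a had 76.8, 79.3 and 89.2 CPM at 0.1 µM and 112, 132 and 125 CPM in solvent. They fell by 0.67 and 0.59 on the log2 scale. Leaving out single libraries ended the calls of Glra3 (adjusted p = 0.148, 0.104 and 0.137 without 0.1 µM replicate 2 or 3 or solvent replicate 3, edgeR) and of Flna (0.0689, 0.125 and 0.131 without 0.1 µM replicate 1 or 2 or solvent replicate 3). More calls were lost for the others. Snrnp35, Rab11fip1, Aimp1, Nop14 and Ammecr1 did not pass in any of the 6 smaller fits, and Zfp146 and Tor3a were each lost in 5 of them.

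By biotype 20 of the 58 were pseudogenes, so sequence shared with other genes was measured. For 14 of them a tested protein-coding gene held at least 30% of their sequence words of 31 bases, and 1 of these partner genes passed, Ftl1-ps1, the partner of Ftl2-ps. Gm2225 had 718, 673 and 728 CPM at 0.1 µM and 322, 339 and 312 CPM in solvent (1.12 ± 0.21, adjusted p = 0.004, edgeR), whereas its partner Rps25, a ribosomal protein gene that holds 64.6% of its words, had 33.9 CPM at 0.1 µM and 40.5 CPM in solvent. Gm6274 had 1379.0, 1437.5 and 1423.1 CPM at 0.1 µM and 838, 869 and 753 CPM in solvent, against 1283.7 and 1441.6 CPM for its partner Rpl7. Gm5611 averaged 117 ± 8.27 CPM at 0.1 µM and 225 ± 17.6 CPM in solvent, against 528 and 554 CPM for Npm1, the nucleophosmin gene. Of the 14 partners, 9 had the same sign as their pseudogene. Hnrnpf, which holds 87.4% of the words of Gm12435, had -0.44 ± 0.12 (adjusted p = 0.11, edgeR), against -1.02 for Gm12435. With LPS Hnrnpf did pass, at -0.57 (adjusted p = 0.00875, edgeR). Neither Rps25, Rpl7 nor Npm1 passed, and how reads were divided between copies and partners was not tested.

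Gm10800, Gm10801, Gm10719, Gm21738 and Gm26870 are related genes with sequence in common, so their reads may be divided among them. Gm10800 had 40.6, 34.8 and 23.2 CPM at 0.1 µM and 108, 117 and 120 CPM in solvent (-1.80 ± 0.37, adjusted p = 0.0151, edgeR). The whole family, with its other copies, took 0.00563% ± 0.000752 of counts at 0.1 µM and 0.0213% ± 0.000911 in solvent (SD, n = 3 each). By rising dose from 1 to 1000 µM that share was 0.0280% ± 0.0146, 0.0451% ± 0.00516, 0.362% ± 0.00844 and 0.0173% ± 0.0165, with the highest value at 100 µM. By replicate it was 0.01161%, 0.03936% and 0.03313% at 1 µM, and 0.008975%, 0.006647% and 0.03625% at 1000 µM. Replicate 1 of 1 µM and replicate 3 of 1000 µM are the 2 libraries in doubt. The 0.1 µM libraries ranged from 0.00485% to 0.00635%. The 4 genes that differed between 0.1 µM and 1 µM melatonin, 0.0235% of those tested, were all of this family and all lower at 0.1 µM (Gm10719, Gm26870, Gm10800 and Gm21738), 7 genes without the 2 libraries in doubt.

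LPS with 0.1 µM melatonin was compared with LPS alone to see whether the same genes differ in libraries that share nothing with the first comparison. Ferritin light chain copies, Malat1 and Glra3 passed again in the same direction, while Tnf, Nfkbia, Nfkbiz, Tnfaip3, Traf1, Acod1 and Nfkb1 did not pass. Of all tested genes 231 passed (1.36%), 111 higher and 120 lower, and 18.2% had non-overlapping groups. Of the 58 genes, 53 had the same sign in both settings, as did 56% of all tested genes, and 16 passed in the same direction, none in the opposite one. These 16 are 27.6% of the calls without LPS and 6.93% of those with LPS. They were Ftl1-ps1, Ftl2-ps, Btf3, Selenof, Gm2225, Gm6274, Gm21399 and Gm43524, which were higher, and Malat1, Glra3, Flna, Zfp146, Gm5611, Gm12435, Gm12966 and B930036N10Rik, which were lower. The 231 became 46 without replicate 2 of LPS with 0.1 µM melatonin, and 99 without its replicate 1. They were 124, 125 and 94 without LPS replicate 1, 2 and 3.

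Ftl1-ps1 had 2243.2, 2200.8 and 2013.8 CPM with LPS and 0.1 µM melatonin and 969, 1045.8 and 1032.8 CPM with LPS alone (1.08 ± 0.14, adjusted p = 2.83e-05, edgeR). The 2 groups were again wide apart, and LPS alone lay above the 502 to 551 CPM of solvent. Malat1 had 1423.8, 1383.1 and 1724.6 CPM with LPS and 0.1 µM melatonin and 2349.6, 2197.6 and 2685.9 CPM with LPS alone (-0.67 ± 0.13, adjusted p = 0.00254, edgeR), and Glra3 had 13.5, 9.12 and 23.1 CPM against 65.1, 58.2 and 67.7 CPM (-2.06 ± 0.41, adjusted p = 0.00373, edgeR). In each the groups did not overlap, as without LPS. Gm2225 had a log2 fold change of 1.13 with LPS and 1.12 without, and Flna of -0.56 and -0.61.

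Tnf had 1327.6, 1380.8 and 1356.7 CPM with LPS and 0.1 µM melatonin and 1251.6, 1208.4 and 1282.5 CPM with LPS alone (0.12 ± 0.14, adjusted p = 0.775, edgeR), the groups apart with the melatonin libraries higher. Nfkbia averaged 680 CPM with both and 600 CPM with LPS alone (0.18 ± 0.17, adjusted p = 0.704, edgeR), with overlapping groups. Tnfaip3 had a log2 fold change of -0.52, Traf1 of -0.37, Acod1 of -0.35, Nfkbiz of -0.57 and Nfkb1 of -0.12 with LPS, and none of these passed. A single member of the NF-kB list did pass with LPS: Icam1, an adhesion molecule for leukocytes, had 7.63, 13.7 and 11.8 CPM with LPS and 0.1 µM melatonin and 29.1, 41.0 and 42.1 CPM with LPS alone (-1.76 ± 0.44, adjusted p = 0.0258, edgeR). Without LPS it had 11.4, 7.70 and 15.1 CPM at 0.1 µM and 16.5, 20.7 and 17.2 CPM in solvent, and did not pass. The difference between the 2 settings, tested as an interaction, passed for none of these genes, with an adjusted p of 0.0597 for Tnf (interaction 0.97 ± 0.20), 0.314 for Nfkbia and 0.338 for Acod1 in edgeR, so an effect of 0.1 µM melatonin that depends on LPS was not shown for them. Over all genes 2 passed the interaction (0.0118%), Gm13502 and Gm29216.

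**Figure D3:**
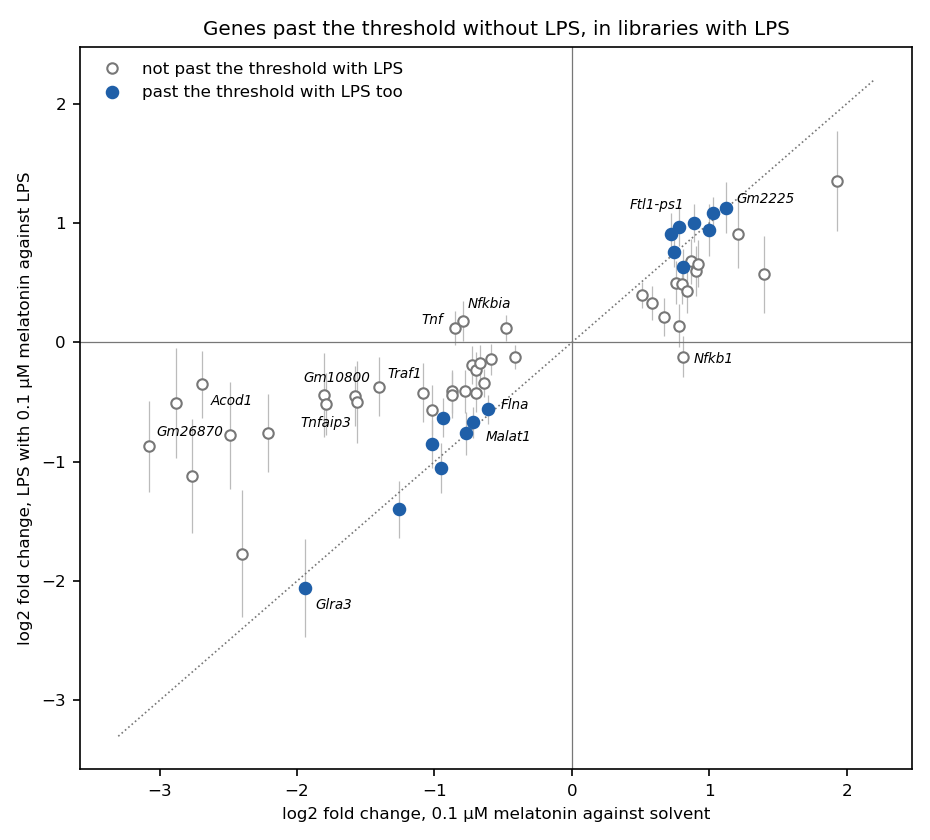
log2 fold change of the genes past the threshold without LPS (horizontal axis) and the same genes' log2 fold change for LPS with 0.1 µM melatonin against LPS (vertical axis, bars: SE), with the line of equal values dotted. Acsbg1 is left out because solvent held 1 count. Filled genes such as Ftl1-ps1, Malat1 and Glra3 lie near the line, and Tnf and Nfkbia lie just above 0 on the vertical axis.

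Levels at the other doses were set beside these values. All doses share the 3 solvent libraries, so the dose values below are set side by side and not counted as independent. First, 2 libraries sat away from their group. In principal components of the 18 libraries without LPS, 1 µM replicate 1 lay at 44.31 on the first component with 1000 µM replicates 1 and 2 (37.6 and 38.1), while 1000 µM replicate 3 lay at -7.3 among the solvent libraries (-10.07 to -6.59). Replicates 2 and 3 of 1 µM, at -16.3 and -14.58, lay beside 0.1 µM (-14.03 to -12.36), and on the second component both groups lay below solvent, 0.1 µM at -25.27 to -18.46 and solvent at 5.79 to 13.11. The labels name no batch, so dose and an unlabelled batch cannot be told apart.

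**Figure D4:**
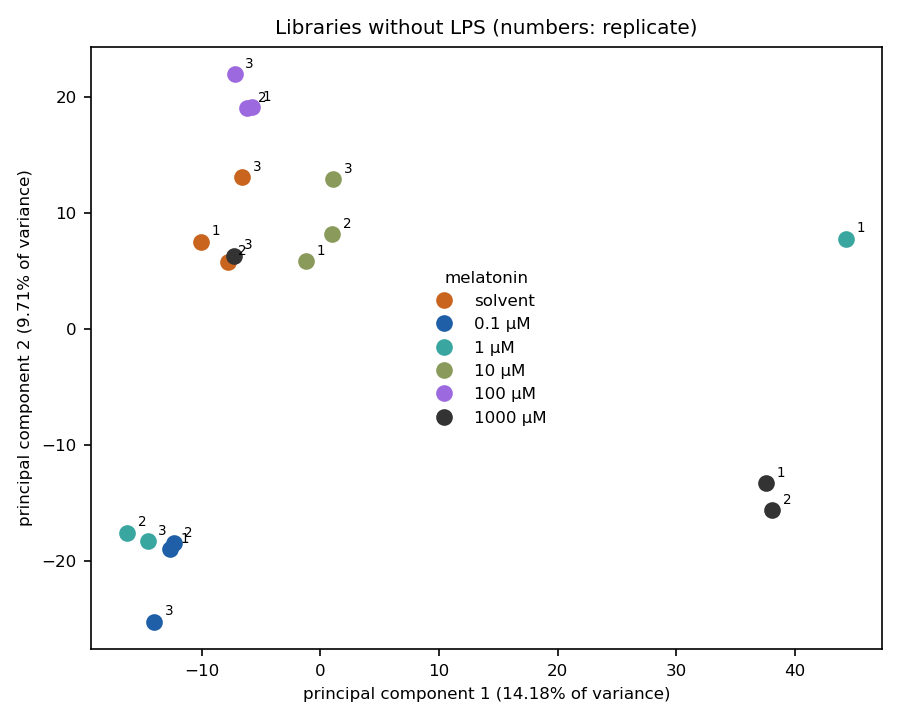
First and second principal components of the 18 libraries without LPS, from log2 CPM of 10323 genes, colored by melatonin dose and numbered by replicate. The 3 libraries at 0.1 µM lie at the lower left with replicates 2 and 3 of 1 µM, away from solvent, and replicate 1 of 1 µM lies at the right with 2 libraries at 1000 µM.

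The 6 inflammatory genes that fell at 0.1 µM had log2 fold changes below 0 at every dose. They were chosen by their fall against solvent. This choice used the same 3 solvent libraries, so values below 0 at the other doses are in part fixed by it. Traf1 averaged, in solvent and by rising dose, 33.0 ± 6.82, 12.5 ± 3.58, 13.2 ± 3.39, 8.57 ± 2.91, 8.50 ± 3.57 and 11.1 ± 0.880 CPM (SD, n = 3 each). The 6 genes, Tnf, Nfkbia, Nfkbiz, Tnfaip3, Traf1 and Acod1, had a median log2 fold change of -1.21, -1.08, -1.10, -1.05 and -1.30 from 0.1 to 1000 µM, with 6, 4, 4, 4 and 5 of the 6 past the threshold. The count at 0.1 µM follows from the choice of genes, and the shares of all tested genes at the higher doses are not given here. Relative to the mean at 10 and 100 µM, their medians were 0.01, 0.52 and 0.05 in the 1 µM libraries. In the 1000 µM libraries they were 0.32, -0.28 and -0.35. These values leave solvent out and do not test the fall from it. Set against the mean of the 4 higher doses, Tnf at 0.1 µM had a log2 difference of 0.06 ± 0.11, Nfkbia one of 0.34 ± 0.13, Traf1 one of 0.29 ± 0.22 and Acod1 one of 0.46 ± 0.60, none past the threshold in edgeR. Nfkb1 did pass, at 0.62 ± 0.14 (adjusted p = 0.0239, edgeR). Its level was 44.6, 95.9 and 79.9 CPM in replicates 1, 2 and 3 of 1 µM, against 80.8 to 91.2 CPM at 0.1 µM. The difference of 0.1 µM from 1 µM was 0.23 ± 0.18 (adjusted p = 0.918, edgeR). A rise particular to 0.1 µM was therefore not shown.

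The other genes were likewise chosen by the contrast of 0.1 µM with solvent, and all doses share the solvent libraries, so their values by dose are a description. The median log2 fold change of the 23 genes that rose was 0.84, 0.67, 0.10, 0.10 and 0.16 from 0.1 to 1000 µM, and that of the 29 other genes that fell was -0.94, -0.44, -0.14, -0.07 and -0.32. Ferritin light chain copies differed from that median, since Ftl1-ps1 and Ftl2-ps also passed against solvent at 1 and 1000 µM. Their summed share with Ftl1 was 0.16% ± 0.0153, 0.126% ± 0.0103, 0.117% ± 0.0032 and 0.159% ± 0.0353 of counts from 1 to 1000 µM. In solvent it was 0.0876% ± 0.00213 (SD, n = 3 each). By replicate it was 0.1774%, 0.1816% and 0.1184% at 1000 µM, and 0.1689%, 0.1843% and 0.1663% at 0.1 µM. Replicate 3 of 1000 µM, the lowest of these, is 1 of the 2 libraries in doubt. Against the mean of the 4 higher doses 104 genes passed (0.612%), 67 higher and 37 lower. Ftl1-ps1 was among those higher, and Ftl2-ps did not pass (0.24 ± 0.12, adjusted p = 0.455, edgeR). The comparison with the higher doses shares its 0.1 µM libraries with the one against solvent. Its count was 163 without 1000 µM replicate 3 and 1 µM replicate 1, and 20, 13 and 20 without 0.1 µM replicate 1, 2 and 3. Gm2225 had 673 to 728 CPM at 0.1 µM, 263, 753 and 738 CPM in replicates 1, 2 and 3 of 1 µM, and 285 to 355 CPM over the 9 libraries at 10, 100 and 1000 µM, near the 312 to 339 CPM of solvent. Btf3 had 76.5, 248 and 212 CPM in the 3 libraries at 1 µM, and Glud1 388, 810 and 750 CPM, with replicate 1 low in both. Set against the mean of the 6 libraries at 10 and 100 µM, none of them in the contrast that chose these genes, 22 of the 23 genes that rose were higher in replicate 2 of 1 µM and 22 in replicate 3, with medians of 0.75 and 0.67, and 11 were higher in replicate 1, with a median of -0.03. Over all tested genes these medians were 0.00, 0.01 and -0.02. Of the 29 other genes that fell, 29, 27 and 23 were lower in replicates 2, 3 and 1 of 1 µM. In the 1000 µM libraries 15, 13 and 14 of the 23 were higher. Malat1 was lower at 0.1 µM than in every library of the higher doses, which ranged from 3106.4 to 5057.3 CPM (difference -0.74 ± 0.11 from their mean, adjusted p = 5.35e-05, edgeR). At 1 µM it had 4403.5, 3106.4 and 3150.6 CPM in replicates 1, 2 and 3, against 3788.4 to 4173.8 CPM in solvent. The difference of 0.1 µM from 1 µM was -0.55 ± 0.13 (adjusted p = 0.288, edgeR), so a fall of Malat1 particular to 0.1 µM was not shown.

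**Figure D5:**
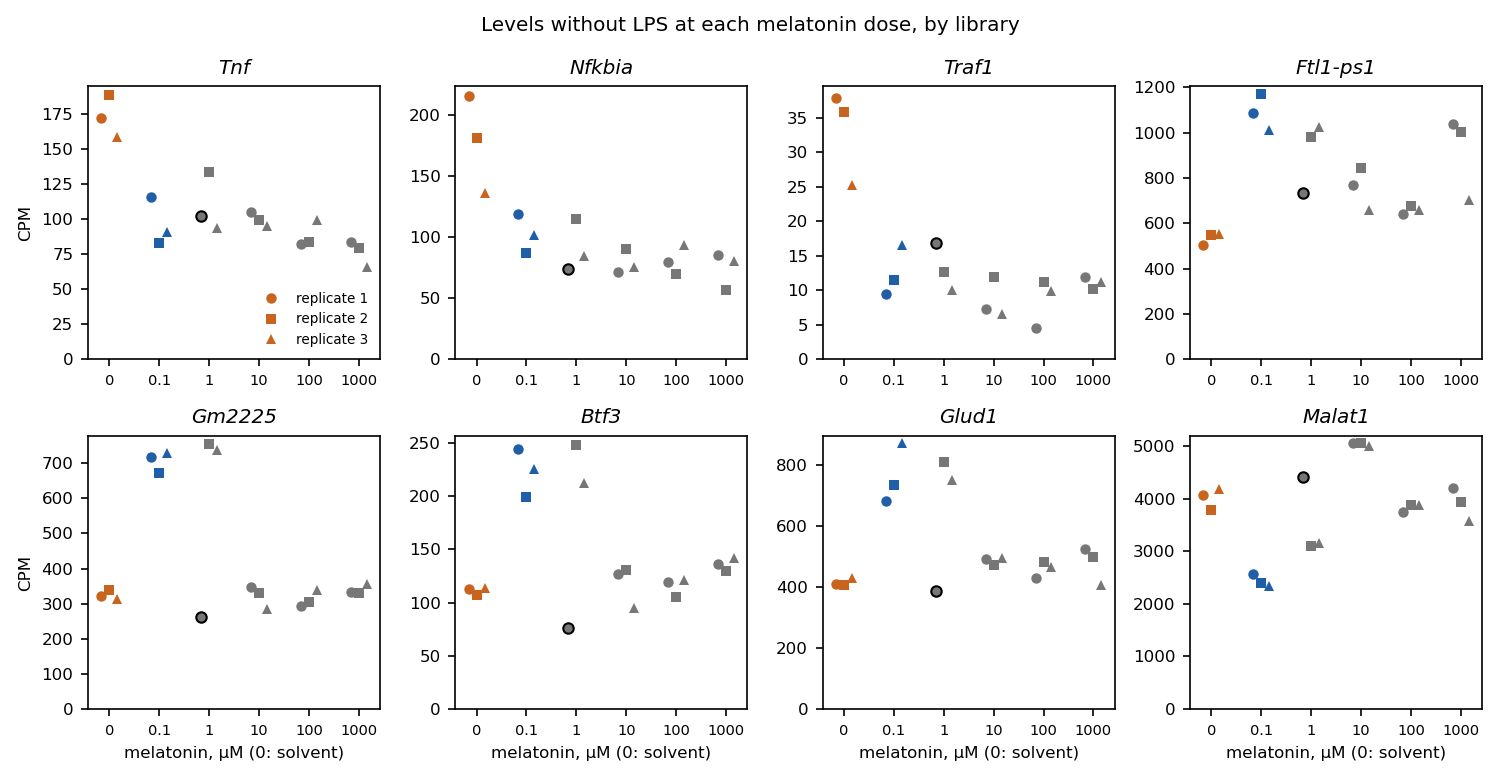
CPM of 8 genes in each library without LPS, from solvent (0) through 0.1, 1, 10, 100 and 1000 µM melatonin (marker shape: replicate; outlined: replicate 1 of 1 µM). Tnf, Nfkbia and Traf1 have means below solvent at all 5 doses, Gm2225, Btf3 and Glud1 are highest at 0.1 µM and in replicates 2 and 3 of 1 µM, and Malat1 is lowest at 0.1 µM.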

How the data were processed

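RNA sequencing libraries (Illumina TruSeq, Trizol-extracted total RNA, per the labels' protocols) had, per the submitters' processing notes, been handled with cutadapt, featureCounts and the mm10 build. The aligner, the annotation release, the strand setting and all versions are not given in the sources used here. The deposited count table holds raw counts of 53465 genes in 36 libraries, and the deposited FPKM table, with symbols and biotypes, was used for levels of marker lists only. Of the gene IDs, 53360 matched GENCODE M21, the source of mm10 positions.

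Counts were tested with edgeR 4.0.16 (R 4.3.3, limma 3.58.1). filterByExpr over the 12 groups of 3 kept 16988 genes, libraries were scaled by TMM, and all 36 libraries entered a single fit with a mean for each group, which pools the spread. The threshold was a Benjamini-Hochberg adjusted p of 0.05 per contrast, two-sided. SE is the log2 fold change over the root of F. DESeq2 1.42.0, RLE size factors, no filter, protein-coding genes only, the 6 compared libraries only, a replicate block and leaving out libraries were alternatives, and the fit was tested on simulated data. Shared sequence is the percent of a gene's 31-base words found in another gene. kappaB consensus matches were searched on both strands of RefSeq promoters, and principal components used genes with a mean above 5 CPM on the log scale.

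Every gene past the threshold could be named. Per-library values were computed for the 15 highest and 15 lowest called genes with at least 5 CPM (fewer where fewer passed; pseudogenes, Gm and Rik genes left out), up to 3 members of each list, and a short set of always included genes. The text prints those of most called genes and of some list members. List members outside this rule (Ccl3, Ccl4, Cybb, Ikbkb, Il1a, Neat1, Nfkb2, Rel, Rela and Tlr4) and partner genes were named after their values were seen. The comparison, the 31 gene lists and the genes were chosen with earlier results of these data known. 1 gene of the marker lists is not reported here.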

Additional observations from a re-analysis of the deposited data

Results flagged for a closer look

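For 2 genes the effect of 0.1 µM melatonin differed with and without LPS in edgeR's interaction test. Gm29216, a pseudogene that shares 97.2% of its sequence words with mt-Co1, a mitochondrial gene, had 11708.5, 12464.0 and 12577.5 CPM at 0.1 µM and 11355.8, 11466.1 and 11174.6 CPM in solvent, but 6406.7, 6041.2 and 5783.2 CPM with LPS and 0.1 µM melatonin and 12956.7, 12716.3 and 11990.2 CPM with LPS alone. The interaction was -1.16 ± 0.20 (log2, adjusted p = 0.010) and passed in all 16 alternatives that tested it. Gm13502, whose words are all found in Idi1, an enzyme of isoprenoid synthesis, averaged higher at 0.1 µM than in solvent (0.76 ± 0.28) and lower with LPS and 0.1 µM melatonin than with LPS (-1.35 ± 0.28). Its interaction was -2.11 ± 0.40 (adjusted p = 0.0316) and passed in 9 of 16 alternatives. Idi1 itself had an interaction of -0.07 (adjusted p = 1, edgeR).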

How the results depend on the processing

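The count of genes past the threshold at 0.1 µM against solvent (58) was 200 with DESeq2, 137 with no filter on low counts, 338 with only the 6 compared libraries, 33 with protein-coding genes only and 155 without the 2 libraries whose labels are in doubt, and 11 to 33 when 1 library was left out. Against 1 µM (4) it was 18 with no filter, 0 with only the 6 libraries (edgeR; 550 at an unadjusted p under 0.05), 7 without the doubted libraries and 2 to 7 with 1 left out. Against the mean of the higher doses (104) it was 244 with DESeq2, 203 with no filter, 60 with protein-coding genes, 163 without the doubted libraries and 13 to 20 with 1 of the 0.1 µM libraries left out. With LPS (231) it was 428 with DESeq2, 508 with only the 6 libraries, 115 with protein-coding genes and 46 to 221 with 1 left out. The interaction (2) gave 12 with DESeq2, 20 with no filter, 0 with protein-coding genes (edgeR; 803 at an unadjusted p under 0.05), 4 with RLE size factors and 1 to 4 with 1 left out. Genes past the threshold with and without LPS in the same direction (16) were 57 with DESeq2, 49 with no filter, 133 with only the 6 libraries and 7 with protein-coding genes. The fits differ in how many genes and libraries enter them, and the part of this in the shifts was not tested. With the replicate number as a block the count against solvent was 53. Same-numbered libraries did not deviate together (correlations -0.0063, 0.0052 and -0.0057), so the numbers were not taken as a pairing. None of the 58 genes changed sign in the 13 alternatives, and 9 kept an adjusted p under 0.05 in each alternative that tested them. Genes near the limit of 3 counts, such as Acsbg1 and Acod1, have the least precise values.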
